A study of Mus musculus with 8 samples.

Results

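Imprinted genes outside the Dlk1-Dio3 cluster were examined in the dorsal forebrain of male mouse embryos at E12.5, which contains the developing neocortex. The set was chosen by name, as 40 symbols, and no measured value or threshold entered its rule. The names were nevertheless drawn up with results of this same genotype comparison known, so counts over the set describe it and support nothing beyond that. Of the 40 names, 39 matched a gene of the deposited tables, and Peg13 is not analysed here. Snrpn was listed under 2 gene IDs, which gave 40 gene IDs out of 43629 in all. The low-count filter passed 37 of them, out of 15382 tested genes.

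Sufu-cKO embryos, sampled as Mut_295, Mut_317, Mut_337 and Mut_340 (4 libraries), were Emx1-cre/+;Sufu-fl/fl, in which cre made from the Emx1 locus recombines both floxed Sufu alleles in dorsal telencephalic progenitors and their descendants. Controls, sampled as Cont_294, Cont_345, Cont_365 and Cont_370 (4 libraries), carried floxed Sufu on both chromosomes or on 1 of them, and the labels do not say which sample had which, or whether any carried cre. All 8 samples were male and of a mixed background with C57BL/6J. Cells outside the Emx1 lineage, such as vessels, meninges and blood, keep Sufu in this model. Whether samples came from separate embryos or litters is not stated, so a p-value here reflects only the spread among these libraries, which could be technical.

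Imprinted genes are transcribed mainly from the chromosome inherited from 1 parent, for most of them as set by DNA methylation laid down in the egg or sperm. They often lie in clusters that share a control region, so neighbours can be expressed from opposite parental chromosomes. Many of them act on fetal growth, the placenta and the brain, and some are imprinted only in certain tissues. Sufu is a negative regulator of the Gli transcription factors of Hedgehog signalling. The counts used here sum both parental copies, so alleles cannot be told apart, and parental origin is given below only as background. In bulk tissue, fewer cells of a type and less RNA per cell cannot be told apart either.

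The libraries held between 27514357 and 34878838 counts. Levels are CPM, counts relative to a library's total after TMM scaling, and fold changes are log2 of Sufu-cKO over control. Genes with an adjusted p below 0.05 in edgeR's quasi-likelihood F-test over all tested genes are said to be called, or to have risen or fallen. Sufu itself had 44.8, 44.5, 37.4 and 35.9 CPM in Sufu-cKO samples, against 105.7, 124.6, 112 and 104.7 CPM in controls, with no overlap (log2 fold change -1.46, SE 0.09, adjusted p = 1.07e-06 by edgeR). The dorsal telencephalic marker Emx1 was present in every library, at 24.1 to 39.7 CPM in Sufu-cKO samples and 43.7 to 56.6 CPM in controls. It was called lower (log2 fold change -0.73, SE 0.14, adjusted p = 0.00831 by edgeR). Sufu-cKO samples carry cre at the Emx1 locus, and the part of that allele in the Emx1 value was not tested.

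Of the 37 tested gene IDs, 13 were called higher in Sufu-cKO samples and 0 were called lower, and the 13 belong to 12 gene names. Over all tested genes, 822 or 5.34% were called higher, 867 or 5.64% lower and 11.0% in either direction. On the lower side, 2 members had an unadjusted p under 0.05 (Gnas and Cd81), DESeq2 called 1 (Gnas) and limma-voom called 0. The median log2 fold change was 0.17 over the tested members and 0.01 over all tested genes, and 28 members were positive and 9 negative. In 13 members every Sufu-cKO sample exceeded every control sample, and in 1 (Gnas) every Sufu-cKO sample lay below. Over all tested genes those shares were 8.33% and 7.86%. Without Cont_365 the count called higher was 8.

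Rises above 2-fold were limited to 3 of the 13 called gene IDs, Peg10, Ddc and Asb4, and the other 10 rose by less than 2-fold. Of 22 tested gene IDs classed here as paternally expressed, 10 were called higher, with a median log2 fold change of 0.24. Among 11 usually maternal ones 2 were called (median 0.06), and among 4 with tissue- or isoform-dependent origin 1 was called (median 0.13). The 10 paternal calls include both Snrpn entries, which are not independent, and Ddc, which is known as imprinted in the mouse heart. The difference between these classes was not tested. The authors' deposited table gives a false discovery rate under 0.05 for 10 of the gene IDs, and all 10 are among the 13 called here.

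**Figure D1:**
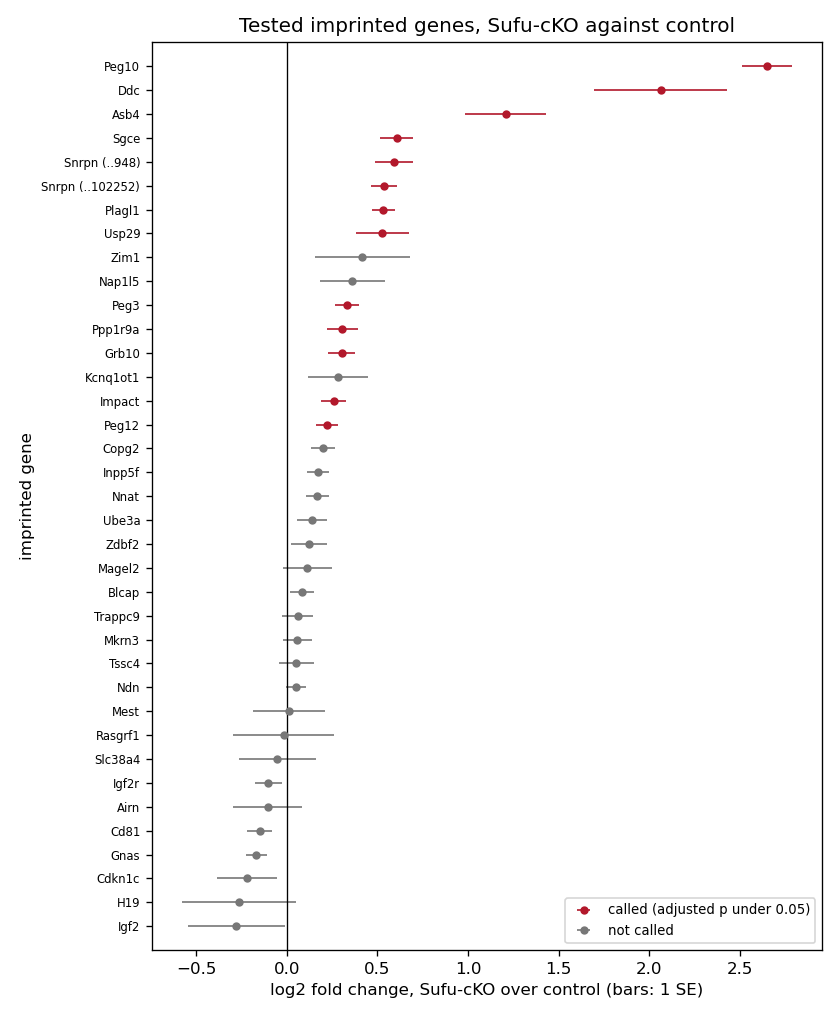
Log2 fold change of Sufu-cKO over control (x axis) for the 37 tested gene IDs (y axis), with bars of 1 SE, called genes in red and the others in grey. The 2 Snrpn labels carry the last digits of their gene IDs. Peg10 lies farthest right at 2.65 and Igf2 farthest left at -0.28.

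Per length of exon, the members spanned a wide range of levels. Nnat, which encodes a small membrane protein of developing brain, was highest at 692 ± 47.6 CPM per kb in Sufu-cKO samples and 616 ± 31 in controls (SD, n = 4 each). Kcnq1ot1, a long non-coding RNA that silences its neighbours in cis, was lowest at 0.0971 ± 0.0201 CPM per kb in Sufu-cKO samples and 0.0798 ± 0.0131 in controls. Before division by length it was not the lowest, at a mean of 9.04 CPM in Sufu-cKO samples and 7.42 in controls. Those means exceeded the ones of Usp29, Nap1l5, Airn, Zim1, Ddc and Rasgrf1. In controls the genes next below Nnat were Mest (154 ± 39.8 CPM per kb), Grb10 (128 ± 9.72), H19 (117 ± 14.3) and Gnas (109 ± 5.37), whose spreads overlapped from one to the next. Peg10 ranked 4 of 37 in Sufu-cKO samples, at 117 ± 14.1 CPM per kb, and 16 of 37 in controls, at 18.6 ± 3.47. The members together took 0.789% to 0.931% of all counts in Sufu-cKO samples and 0.71% to 0.75% in controls.

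**Figure D2:**
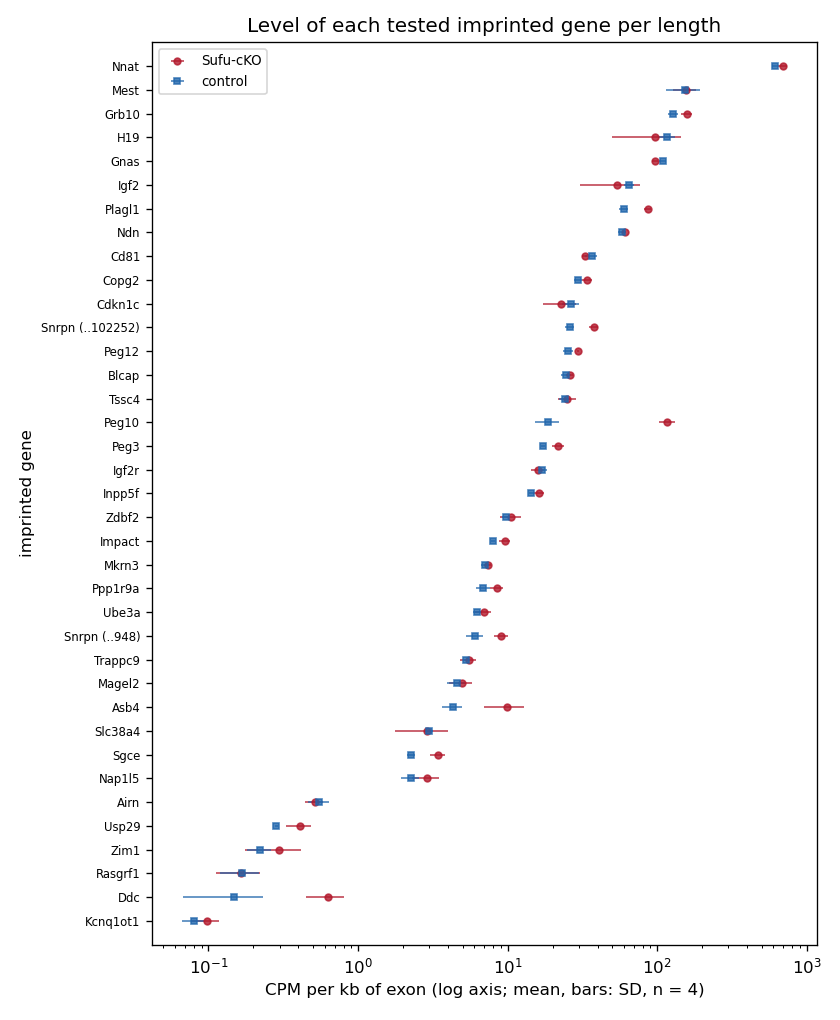
Mean level of each tested gene ID in CPM per kb of exon (log x axis) in Sufu-cKO (red circles) and control samples (blue squares), with bars of 1 SD over 4 samples. Most pairs of points lie close together, and Peg10 stands apart at 117 in Sufu-cKO and 18.6 in control samples.

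The Peg10-Sgce domain of chromosome 6 held the largest change, and each of its 4 tested members rose. Peg10, a retrotransposon-derived gene that is needed for the mouse placenta, spans 4747306 to 4760517 on the plus strand of chromosome 6 in GRCm38 (ENSMUSG00000092035). It had 685, 733, 804 and 901 CPM in Sufu-cKO samples, against 122, 106, 111 and 158 CPM in controls. The lowest Sufu-cKO sample lay far above the highest control. Its level was 6.28-fold that of controls (log2 fold change 2.65, SE 0.14, adjusted p = 2.89e-06 by edgeR). Peg10 is read from its paternal copy, as is Sgce, which lies head to head with it on the minus strand, with 101 bases between the annotated genes.

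Sgce, the epsilon member of the sarcoglycan membrane proteins, had 34.6, 31.5, 40.1 and 39.8 CPM in Sufu-cKO samples, against 24.8, 21.7, 24.8 and 24.6 CPM in controls. The groups did not overlap, yet the rise was far smaller than that of Peg10 (log2 fold change 0.61, SE 0.09, adjusted p = 0.00107 by edgeR). The ratio of Peg10 to Sgce counts was accordingly 19.8 to 23.3 in Sufu-cKO samples, against 4.47 to 6.4 in controls.

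Asb4, which encodes a substrate-binding subunit of ubiquitin ligases, had 39.3, 23, 44.4 and 49.4 CPM in Sufu-cKO samples, against 18.1, 13.7, 16.2 and 19.6 CPM in controls. All Sufu-cKO values lay above the controls, with Mut_317 well below its group (log2 fold change 1.21, SE 0.22, adjusted p = 0.00982 by edgeR). In a list of 9 GABAergic neuron markers, Mut_317 was the lowest Sufu-cKO sample for 6 (Gad1, Gad2, Dlx1, Dlx2, Dlx6 and Slc32a1) and the highest for 3 (Npy, Lhx6 and Sst). The summed level, made up mostly of Dlx and Gad genes, was 167.1, 29.5, 80.3 and 154.5 CPM in Sufu-cKO samples, against 23.15, 10.5, 41.2 and 99.9 CPM in controls, and its part in the result was not tested. Of the 9 markers edgeR called 1, Npy, as higher, against 5.34% of all tested genes, and DESeq2 called 2. An unadjusted p under 0.05 was found for 3, Npy and, on the lower side, Lhx6 (log2 fold change -1.08, adjusted p = 0.13 by edgeR) and Sst (-1.10, adjusted p = 0.188). None of the 9 was at 0 in all samples.

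Ppp1r9a, which encodes an actin-binding scaffold of nerve terminals and spines, had 109, 127, 121 and 138 CPM in Sufu-cKO samples, against 105, 94.9, 88.1 and 112 CPM in controls. It was the called member whose groups overlapped, since Mut_295 lay below Cont_370 (log2 fold change 0.31, SE 0.09, adjusted p = 0.042 by edgeR). That call held only without Cont_370 or Mut_295, and leaving out any 1 of the other libraries gave an adjusted p of 0.0637 to 0.131. Calcr, the calcitonin receptor gene of the same domain, was not tested, with 6, 3, 4 and 9 counts in Sufu-cKO libraries and 1, 1, 4 and 1 in controls.

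The rest of the neighbourhood gave 1 further call. Within 1 Mb of the Peg10 start, 9 genes outside the set were tested. They include Tfpi2, Pon2 and Pon3, which are among the other imprinted genes counted below. The called one was Casd1, an acetyltransferase gene of sialic acids (log2 fold change 0.27, SE 0.07, adjusted p = 0.0231 by edgeR). Over all tested genes 11.0% were called in either direction. The median over these 9 genes was 0.27.

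**Figure D3:**
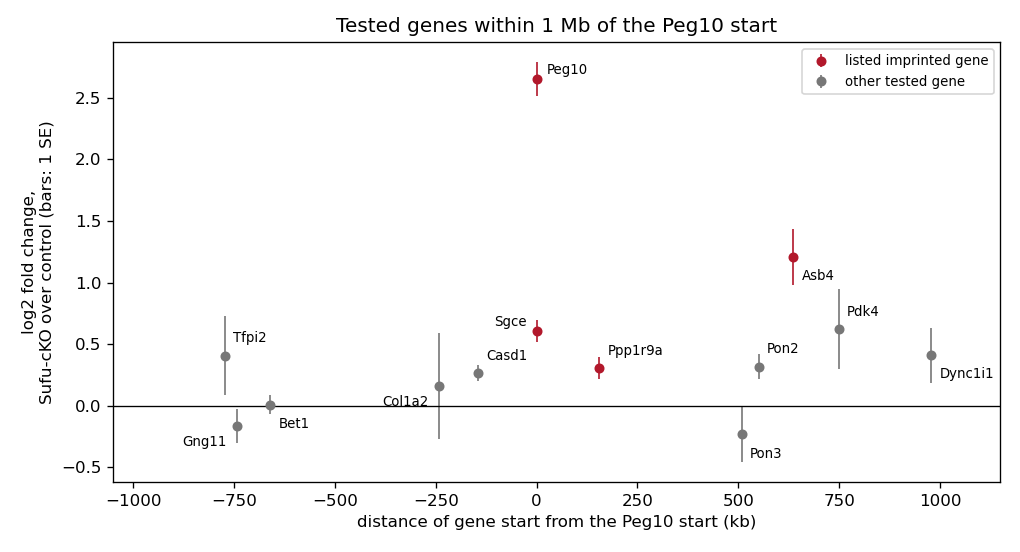
Log2 fold change with bars of 1 SE (y axis) against the distance of each tested gene's start from the Peg10 start in kb (x axis). Members of the set are in red. Other tested genes, among them the imprinted genes Tfpi2, Pon2 and Pon3, are in grey. Peg10 lies at 2.65, and Sgce, which starts beside it, at 0.61.

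Both members of the Grb10 domain on chromosome 11 rose, by very different amounts. Ddc encodes aromatic L-amino acid decarboxylase, which makes dopamine and serotonin, and is known as imprinted in the mouse heart. It had 2.91, 1.65, 3.37 and 3.3 CPM in Sufu-cKO samples, against 0.961, 0.292, 0.411 and 0.988 CPM in controls. The groups did not overlap (log2 fold change 2.06, SE 0.37, adjusted p = 0.00392 by edgeR), but counts were low, at 47 to 115 in Sufu-cKO and 8 to 35 in control libraries. Its lowest Sufu-cKO sample was again Mut_317, the one with the lowest summed GABAergic markers, although not the lowest in Npy, Lhx6 or Sst.

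Grb10 encodes an adaptor that dampens insulin and IGF receptor signalling, and is read from the maternal copy in most mouse tissues and from the paternal copy in neurons. It had 1371, 1297, 1535 and 1515 CPM in Sufu-cKO samples, against 1210, 1251, 1121 and 1055 CPM in controls. The gap between the groups was narrow (log2 fold change 0.30, SE 0.07, adjusted p = 0.0193 by edgeR), and the call was lost without Cont_365, Cont_370 or Mut_337 (adjusted p from 0.0561 to 0.0676). Of 6 other tested genes within 1 Mb of the Ddc start, 1 was called, against 11.0% of all tested genes in either direction. It was Vwc2, which encodes a secreted BMP-binding protein (log2 fold change 2.25, SE 0.32, adjusted p = 0.000708 by edgeR).

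Plagl1, a paternally expressed zinc-finger transcription factor known for limiting cell growth, lies at 13060504 to 13131694 on the plus strand of chromosome 10. It had 647, 717, 645 and 692 CPM in Sufu-cKO samples, against 453, 476, 433 and 505 CPM in controls. Values were tight within each group and did not overlap (log2 fold change 0.53, SE 0.06, adjusted p = 0.000166 by edgeR). Plagl1 also had called neighbours, since 4 of 11 other tested genes within 1 Mb were higher (Ltv1, Phactr2, Aig1 and Hivep2) and 0 lower. The shares called over all tested genes were 5.34% higher and 5.64% lower. Phactr2 is also among the other imprinted genes counted below. Hivep2, a zinc-finger factor gene about 906 kb away, had a log2 fold change of 2.42 (SE 0.14, adjusted p = 3.16e-06 by edgeR).

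Promoter windows of the members were set beside these changes. RefSeq windows on GRCm38.p6, reaching from 250 bases before to 50 after a gene's start, were matched for 31 member gene IDs. No window was matched for 3 called gene IDs, Peg10, Sgce and Impact. Shown here are Asb4, Ddc and Plagl1, the called genes with the largest rises or, for Plagl1, the smallest p that had a window, and CpG pairs are in capitals. They lie at chr6:5383136-5383435 on the plus strand, chr11:11898095-11898394 on the minus strand and chr10:13090582-13090881 on the plus strand. The Plagl1 window surrounds a RefSeq start that lies 30328 bases from the deposited gene start. Among windows not shown, that distance was 230577 bases for Usp29 and 9959 for Mest.
Asb4: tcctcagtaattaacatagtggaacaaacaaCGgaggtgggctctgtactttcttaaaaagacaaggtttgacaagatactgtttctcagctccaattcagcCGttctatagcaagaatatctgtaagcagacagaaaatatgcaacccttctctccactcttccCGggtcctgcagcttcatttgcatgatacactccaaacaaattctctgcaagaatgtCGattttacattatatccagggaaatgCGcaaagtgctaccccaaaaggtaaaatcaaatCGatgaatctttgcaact
Ddc: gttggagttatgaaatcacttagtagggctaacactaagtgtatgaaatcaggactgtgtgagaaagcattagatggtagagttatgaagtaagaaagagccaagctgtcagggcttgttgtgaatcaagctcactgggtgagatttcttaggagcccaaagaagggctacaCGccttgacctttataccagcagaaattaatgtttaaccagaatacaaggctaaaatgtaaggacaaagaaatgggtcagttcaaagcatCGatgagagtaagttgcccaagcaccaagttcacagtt
Plagl1: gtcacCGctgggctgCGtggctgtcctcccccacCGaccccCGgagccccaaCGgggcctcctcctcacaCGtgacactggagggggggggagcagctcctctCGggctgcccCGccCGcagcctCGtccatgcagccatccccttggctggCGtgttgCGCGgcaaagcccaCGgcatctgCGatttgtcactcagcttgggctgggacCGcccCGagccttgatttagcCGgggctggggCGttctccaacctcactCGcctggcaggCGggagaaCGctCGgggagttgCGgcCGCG
The windows held 6, 2 and 26 CpG pairs in that order. The median was 15 over the 31 member windows and 7 over all 32851 windows. The 9-letter Gli motif GACCACCCA, searched on both strands (TGGGTGGTC on the other), occurred in 0 of the 31 windows and in 0.253% of all windows, which says only that these letters are not in these stretches.

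In the Peg3 domain of chromosome 7, 2 of 3 tested members rose. Peg3, a paternally expressed zinc-finger gene linked to maternal behaviour and growth in mice, had 279, 267, 329 and 285 CPM in Sufu-cKO samples, against 235, 235, 220.2 and 233 CPM in controls. Every Sufu-cKO sample exceeded the controls (log2 fold change 0.33, SE 0.07, adjusted p = 0.00644 by edgeR). Usp29, a gene of the ubiquitin-specific protease family, had 6.62, 7.18, 6.39 and 9.46 CPM in Sufu-cKO samples, against 5.25, 5.07, 5.02 and 5.22 CPM in controls, also without overlap (log2 fold change 0.53, SE 0.14, adjusted p = 0.0356 by edgeR). The Usp29 call held only without Mut_295 or Mut_337, and leaving out any 1 of the other libraries gave an adjusted p of 0.0676 to 0.0954.

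Zim1, a maternally expressed zinc-finger gene beside Peg3, was not called. It had 1.79, 1.8, 3.81 and 2.16 CPM in Sufu-cKO samples, against 1.75, 1.6, 1.55 and 2.26 CPM in controls (log2 fold change 0.42, SE 0.26, adjusted p = 0.399 by edgeR). Its value in Mut_337 stood above all others. None of 12 other tested genes within 1 Mb of the Peg3 start was called by edgeR, against 11.0% of all tested genes.

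In the Snrpn-Ube3a domain, whose human counterpart is deleted in Prader-Willi and Angelman syndromes, 3 of 7 tested gene IDs rose. Snrpn encodes a neuronal protein of the spliceosome. Under ENSMUSG00000102252 it had 76.7, 79.1, 81.3 and 89.6 CPM in Sufu-cKO samples, against 53.1, 55, 62.4 and 54.8 CPM in controls (log2 fold change 0.54, SE 0.07, adjusted p = 0.0004 by edgeR). Under ENSMUSG00000000948 it had 44.3, 52.6, 41.9 and 51.2 CPM in Sufu-cKO samples, against 33.8, 33, 25.5 and 33.9 CPM in controls (log2 fold change 0.59, SE 0.11, adjusted p = 0.00362 by edgeR). Neither entry overlapped between groups, but both cover the same strand, so how reads were split between them is uncertain and they are not independent. D7Ertd715e, a gene model on the same strand that overlaps ENSMUSG00000000948, also rose (log2 fold change 0.51, SE 0.08, adjusted p = 0.00132 by edgeR).

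Peg12, a gene related to the Frat inhibitors of Gsk3, had 78.4, 77.1, 79.5 and 78.9 CPM in Sufu-cKO samples, against 74.3, 66.4, 61.7 and 66.7 CPM in controls. The Sufu-cKO values were nearly alike and all above the controls (log2 fold change 0.22, SE 0.06, adjusted p = 0.0386 by edgeR). That call held only without Cont_294, and leaving out any 1 of the other libraries gave an adjusted p of 0.0552 to 0.122.

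The other members of the domain were not called, and their groups overlapped. Ndn, a MAGE-family gene of neurons, had 224.5, 229.7, 219.8 and 221.6 CPM in Sufu-cKO samples, against 199, 222.5, 231.6 and 211.5 CPM in controls (log2 fold change 0.05). Magel2, its relative, had 25.1, 27, 21.3 and 18.1 CPM in Sufu-cKO samples, against 17.6, 20.2, 22.1 and 24.6 CPM in controls (0.11). Mkrn3, a ring-finger gene known for restraining the onset of puberty, had 20.3, 18.8, 18.2 and 17.8 CPM in Sufu-cKO samples, against 17.9, 17.3, 17.3 and 19.5 CPM in controls (0.06). The ubiquitin ligase gene Ube3a, maternally expressed in neurons, was likewise mixed. It had 121.9, 144.5, 140.3 and 163.6 CPM in Sufu-cKO samples, against 133, 138.9, 118.9 and 128 CPM in controls (log2 fold change 0.14, SE 0.08, adjusted p = 0.379 by edgeR).

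Impact, a paternally expressed inhibitor of the stress kinase Gcn2, had 44.1, 47.2, 52.5 and 52.8 CPM in Sufu-cKO samples, against 41.8, 39.5, 40.9 and 42.1 CPM in controls. The groups were close without overlapping (log2 fold change 0.26, SE 0.07, adjusted p = 0.0348 by edgeR). The call held only without Mut_295, and leaving out any 1 of the other libraries gave an adjusted p of 0.0558 to 0.113. Of 8 other tested genes within 1 Mb, none was called by edgeR, against 11.0% of all tested genes.

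**Figure D4:**
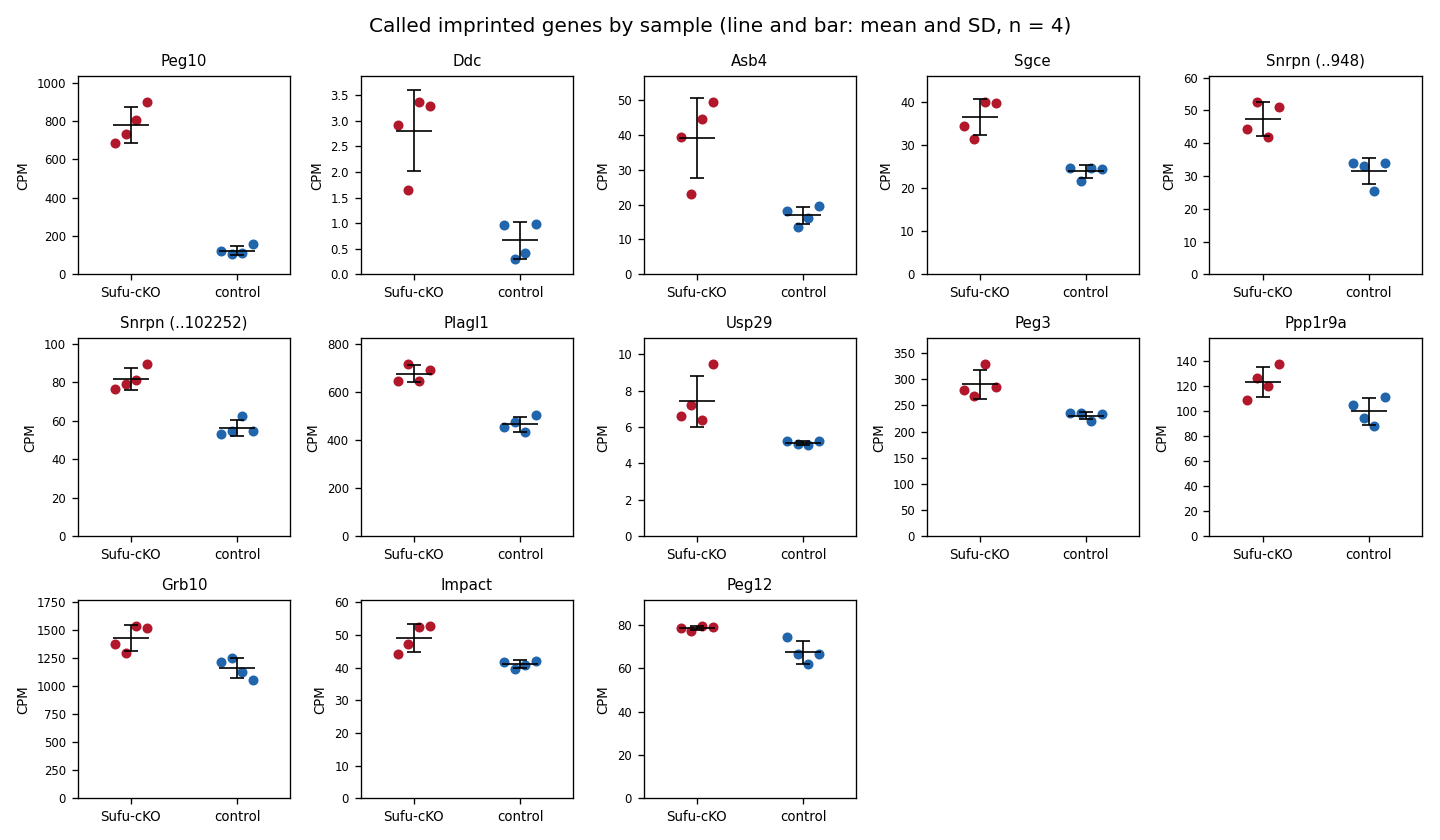
CPM (y axis, from 0) in each Sufu-cKO (red) and control (blue) sample for the 13 called gene IDs, with the mean as a line and SD bars over 4 samples. Samples overlap between genotypes in Ppp1r9a and in none of the other panels.

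The growth genes of the Igf2-H19 domain were not called in the whole set, and 1 library decided that. Igf2, a paternally expressed fetal growth factor, had 239, 251.5, 503 and 232 CPM in Sufu-cKO samples, against 333, 367, 395 and 393 CPM in controls (log2 fold change -0.28, SE 0.27, adjusted p = 0.629 by edgeR). H19, the maternally expressed non-coding RNA beside it, had 187, 192, 412 and 164 CPM in Sufu-cKO samples, against 244, 273, 308 and 323 CPM in controls (log2 fold change -0.26, SE 0.31, adjusted p = 0.71 by edgeR). In both genes Mut_337 was the highest of all 8 samples, and the other 3 Sufu-cKO samples lay below every control. Without Mut_337 both were called lower, Igf2 at -0.64 (adjusted p = 0.000231) and H19 at -0.67 (adjusted p = 0.00157), by edgeR. The ratio of H19 to Igf2 counts was 0.784, 0.765, 0.819 and 0.707 in Sufu-cKO samples, against 0.734, 0.743, 0.778 and 0.821 in controls, and thus overlapped.

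Slc38a4, a paternally expressed amino acid transporter gene, likewise had its highest value in Mut_337 and its other Sufu-cKO values below every control, at 9.93, 9.71, 19.3 and 10 CPM in Sufu-cKO samples, against 12.8, 11.7, 13.6 and 12.8 CPM in controls. It was called lower only without Mut_337 (log2 fold change -0.37, adjusted p = 0.0473 by edgeR). Cdkn1c, a maternally expressed inhibitor of the cell cycle, had 47.7, 36.4, 62.5 and 39.8 CPM in Sufu-cKO samples, against 56.4, 52.3, 62.7 and 46 CPM in controls. It was not called with all libraries (log2 fold change -0.22, SE 0.17, adjusted p = 0.51 by edgeR) or without Mut_337 (-0.41, adjusted p = 0.0542).

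Mut_337 stood apart in markers of meninges and mesenchyme as well. The summed level of 12 such markers was 752.8, 783, 1655 and 778 CPM in Sufu-cKO samples, against 1023, 947.3, 969.4 and 982.9 CPM in controls. In 10 of the 12, Mut_337 was the highest of all 8 samples, and none of the 12 was at 0 in all samples. Col1a1, a fibrillar collagen gene, had 221 CPM in Mut_337, 48.5 to 57.6 CPM in Mut_295, Mut_317 and Mut_340, and 64.6 to 82 CPM in controls. Of the 12 markers 2 were called, Tbx18 and Cyp1b1, both lower, against 5.64% of all tested genes called lower. The part of these cells in the Igf2, H19, Slc38a4 and Cdkn1c values was not tested.

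**Figure D5:**
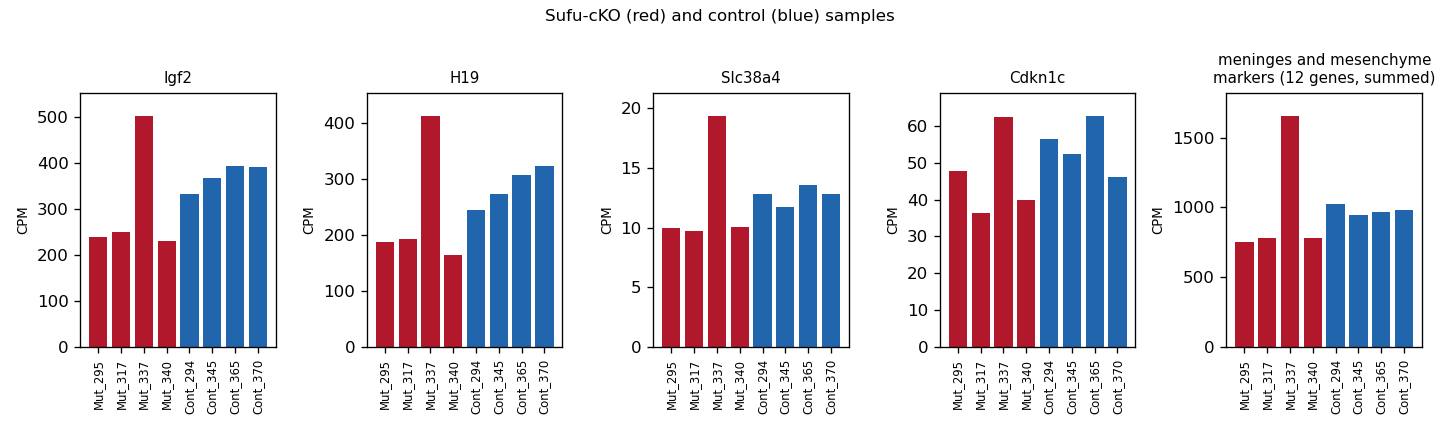
CPM (y axes, from 0) in each sample for Igf2, H19, Slc38a4, Cdkn1c and the sum of 12 meninges and mesenchyme markers, with Sufu-cKO samples in red and controls in blue. Mut_337 is the tallest bar for Igf2 (503), H19 (412), Slc38a4 (19.3) and the marker sum (1655), whereas for Cdkn1c Cont_365 is marginally taller.

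In other lists of cell-type markers, summed levels did not overlap between genotypes for choroid plexus, pericytes and erythroid cells. Sums overlapped for microglia, endothelium, cortical progenitors and cortical neurons. Over all tested genes 5.34% were called higher and 5.64% lower. The part of any of these cells in the values of the imprinted genes was not tested. The summed choroid plexus markers were at 92.4 to 293.5 CPM in Sufu-cKO samples and 529 to 805.5 in controls, with 6 of 9 tested markers called lower. All 9 had an unadjusted p under 0.05 by edgeR, DESeq2 called 9 of the 10 listed, and limma-voom called 8. Pericyte sums were 175.5 to 232.9 CPM in Sufu-cKO samples and 268.3 to 297.1 in controls, with 2 of 8 called lower. Microglial sums were 38.9 to 49.9 CPM in Sufu-cKO samples and 49.5 to 68.1 in controls, with 4 of 10 called lower. Endothelial sums were 281.9 to 338.4 CPM in Sufu-cKO samples and 332.2 to 385.3 in controls (3 of 10 called lower). Erythroid sums were 3083 to 3547 CPM in Sufu-cKO samples and 3576 to 4714 in controls (none called by edgeR, 4 of 10 at an unadjusted p under 0.05 and 1 called by DESeq2). That sum is mostly Hbb-y, at 2529 to 2751 CPM in Sufu-cKO samples and 2774 to 3634 in controls. Each of the other erythroid markers overlapped between genotypes. Cortical progenitor sums were 1470 to 1683 CPM in Sufu-cKO samples and 1656 to 1898 in controls, with 2 of 8 called higher and 3 lower. Cortical neuron sums were 2906 to 3266 CPM in Sufu-cKO samples and 2534 to 2928 in controls, with 2 of 8 called higher. The 8 include Eomes, a gene of intermediate progenitors, so that sum is not of neurons alone.

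The remaining domains gave no calls. Nnat had 1320, 1162, 1352 and 1226 CPM in Sufu-cKO samples, against 1103, 1073, 1122 and 1206 CPM in controls, with Mut_317 below the highest control (log2 fold change 0.17, SE 0.06, adjusted p = 0.125 by edgeR). Blcap, in whose intron Nnat lies, had a log2 fold change of 0.08. Gnas, which encodes the stimulatory G protein alpha subunit among other products, had 1145, 1066, 1117 and 1016 CPM in Sufu-cKO samples, against 1164, 1237, 1297 and 1182 CPM in controls. All Sufu-cKO values were below the controls, but the gene was not called (log2 fold change -0.17, SE 0.06, adjusted p = 0.0964 by edgeR), and DESeq2 called it lower (adjusted p = 0.0478).

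Mest, a hydrolase-family gene of fetal mesoderm and brain, had a log2 fold change of 0.01 (SE 0.20), with 663, 491, 734 and 559 CPM in Sufu-cKO samples and 790, 474, 479 and 687 CPM in controls. Its sign flipped to -0.01 under upper-quartile scaling or total counts alone. Copg2, a coat protein gene that overlaps Mest on the opposite strand, was just outside the threshold, at 162, 167, 177 and 192 CPM in Sufu-cKO samples and 164, 146, 149 and 148 CPM in controls (log2 fold change 0.20, SE 0.06, adjusted p = 0.0728 by edgeR). Copg2 was called higher without Mut_295 (adjusted p = 0.0341) and by DESeq2 (0.0476). In the Kcnq1ot1 domain, Kcnq1ot1 (0.28), Cd81 (-0.15) and Tssc4 (0.05) were not called. Mest and Copg2, Nnat and Blcap, and Igf2r and Airn overlap on opposite strands, as do Kcnq1ot1 and Kcnq1. Opposite-strand genes outside the set also overlap Igf2 (Igf2os), Gnas (Nespas and Gm20721), Cd81 (R74862), Tssc4 (Trpm5) and Nap1l5 (Herc3). How reads were assigned among these overlapping genes is uncertain.

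Igf2r, the maternally expressed receptor that clears Igf2, and Airn, the non-coding RNA that silences it, both had log2 fold changes of -0.10 and were not called. Nor were Inpp5f (0.17), Nap1l5 (0.36), Zdbf2 (0.12), Trappc9 (0.06) and Rasgrf1 (-0.02), although in Inpp5f, a phosphoinositide phosphatase gene, every Sufu-cKO sample (126.9 to 150.8 CPM) exceeded every control (116.7 to 122.1 CPM). Phlda2 and Slc22a18 were not tested. Phlda2 had 0 to 2 counts in Sufu-cKO and 0 to 1 in control libraries, where a count of 0 allows up to 3 counts, for counting error only. Slc22a18 had 1 to 4 counts per library in both genotypes.

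Lists around the imprinted genes, drawn up with earlier results known, gave the wider setting. Of 17 tested regulators of imprinting, such as DNA methyltransferases and zinc-finger factors that guard methylated copies, 0 were called by edgeR, 1 had an unadjusted p under 0.05 and 1 was called by DESeq2 (limma-voom 0). The edgeR share over all tested genes was 11.0% in either direction. Dnmt3a, the methyltransferase that sets imprints in germ cells, came nearest, at 243.3, 273.7, 265.4 and 233.2 CPM in Sufu-cKO samples and 284.3, 309.6, 281.1 and 297.9 CPM in controls (log2 fold change -0.21, SE 0.06, adjusted p = 0.0513 by edgeR).

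Of 34 other tested imprinted genes, 8 were called higher and 2 lower, against 5.34% and 5.64% of all tested genes. Of the 8, Dio3, Dlk1, Mirg, Rian, Rtl1 and Meg3 belong to the Dlk1-Dio3 cluster, and Adam23 and Phactr2 lie elsewhere. Phactr2 was already counted above among the called genes near Plagl1. Adam23, a cell adhesion gene of neurons, had 20.8, 23.8, 24.9 and 25.1 CPM in Sufu-cKO samples, against 16.2, 13.4, 13 and 17.2 CPM in controls (log2 fold change 0.66, adjusted p = 0.002 by edgeR). The 2 called lower were Osbpl5, an oxysterol-binding protein gene (log2 fold change -0.53, adjusted p = 0.00274 by edgeR), and Gab1, a growth factor receptor adaptor gene (log2 fold change -0.32, adjusted p = 0.0124 by edgeR). Without Cont_345 or Cont_365 the calls in the regulators and these genes together numbered 6 instead of 10.

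Among 9 genes listed around IGF signalling, 3 were called, all higher, and each encodes an insulin receptor substrate. The 9 were Igf1, Igf1r, Insr, Irs1, Irs2, Irs4, Igf2bp1, Igf2bp2 and Igf2bp3, and DESeq2 called 4 of them. Over all tested genes 5.34% were called higher. Irs1 had 162.2, 195.6, 180.8 and 202.2 CPM in Sufu-cKO samples, against 121.6, 135.4, 130.3 and 122.6 CPM in controls (log2 fold change 0.54, adjusted p = 0.000444 by edgeR). Irs4 had 4.47, 5.24, 6.13 and 4.52 CPM in Sufu-cKO samples, against 2.33, 1.24, 0.979 and 1.95 CPM in controls (log2 fold change 1.64, adjusted p = 0.00121 by edgeR). Irs2 had 17.1, 13.2, 12.6 and 9.4 CPM in Sufu-cKO samples, against 5.87, 7.18, 6.7 and 6.78 CPM in controls (log2 fold change 0.98, adjusted p = 0.00218 by edgeR). None of the 3 overlapped between genotypes. Igf1r, the receptor of Igf2 signalling, stood at a log2 fold change of 0.01 (SE 0.08). The insulin receptor gene Insr was at 90, 101.7, 94.2 and 88.3 CPM in Sufu-cKO samples, against 103.9, 109.8, 102.1 and 109.1 CPM in controls. Every Sufu-cKO value was below the controls, but Insr was not called (log2 fold change -0.18, SE 0.06, adjusted p = 0.0686 by edgeR).

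Spread within a genotype was wider among the Sufu-cKO samples. The median coefficient of variation of the tested members was 12% in Sufu-cKO samples and 7.62% in controls, and over all tested genes it was 10.4% in Sufu-cKO samples and 8.36% in controls.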

How the data were processed

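RNA of dorsal forebrain was sequenced in 8 samples, with strand-marking, polyadenylation-selected libraries per the labels' protocols. Reads were aligned with STAR 2.4.2a to GRCm38, per the submitters' processing notes. For the counting program, its strand setting and the annotation release, the answer is not given in the sources used here. Raw gene counts, as deposited by the authors, were the values tested. Their other table holds a signal per gene and sample, normalised by the authors through 1 divisor for each sample. Beside the signal stand the authors' fold change (ratio of mutant to control) and the deposited p-value with its false discovery rate. A spreadsheet had made a formula of 1 gene ID, which was read back from it. Every value column matched a sample (0 did not).

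The test used edgeR 4.0.16 under R 4.3.3. Its filterByExpr (minimum count 10, minimum total 15) left 15382 of 25299 genes with any count, and these held 99.94% of counts. After TMM scaling, the 4 samples of each genotype were compared by the robust quasi-likelihood F-test, 2-sided, with Benjamini-Hochberg adjustment over all tested genes. The biological coefficient of variation was 12.8%. Levels per kb divide CPM by the union exon length of GENCODE on GRCm38, which for Usp29 is longer than the deposited gene span. Every pair of samples of a group differed by more than counting noise in a chi-square test of counts, so none was treated as a library deposited again. That does not show that samples are independent. The test was checked on simulated counts with known changes.

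The members and all gene lists were chosen with earlier results of these data known. The windows of 1 Mb around called members and the promoters shown were chosen after values were seen. Values in every sample are given for called members, for other members of their domains and for Igf2, H19, Cdkn1c, Grb10, Peg3, Nnat, Snrpn and Plagl1, and of other lists for up to 6 called genes. Other members or list genes with values in every sample, and markers named singly, were chosen after their values were seen. Alternatives were 3 other scalings, no low-count filter, at least 1 CPM in 4 samples, DESeq2 1.42.0, voom from limma 3.58.1, edgeR without robust estimation and each sample left out in turn.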

Additional observations from a re-analysis of the deposited data

Results flagged for a closer look

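In 7 of 74 groups of 4 samples, 1 sample lay far from the other 3, with a gap of more than Dixon's critical share of the group's range. Chance gives such a gap in about 1 in 20 groups. In Sufu-cKO samples all 4 were the high value of Mut_337. They were Igf2 at 503.1 CPM (others 231.8 to 251.5), H19 at 412 CPM (163.9 to 192.3), Slc38a4 at 19.34 CPM (9.715 to 10.01) and Blcap at 85.51 CPM (76.52 to 77.89). In controls the 3 lay in different samples. Sgce was low in Cont_345 at 21.66 CPM (others 24.59 to 24.77), Snrpn (ENSMUSG00000000948) was low in Cont_365 at 25.46 CPM (32.99 to 33.91), and Copg2 was high in Cont_294 at 164.2 CPM (146.4 to 148.6).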

How the results depend on the processing

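Across 16 alternatives and 37 tested gene IDs (592 fits), 537 kept their direction and their side of the threshold, 35 lost a call, 6 gained one and 14 changed sign. Of the 13 called gene IDs, 8 (Peg10, Sgce, Asb4, Peg3, both Snrpn entries, Ddc and Plagl1) stayed called in all 16, and 5 (Ppp1r9a, Usp29, Peg12, Grb10 and Impact) did not. Other than by leaving out samples, calls were lost for Ppp1r9a (upper-quartile scaling, total counts alone and voom, adjusted p from 0.0502 to 0.0594), Peg12 (upper-quartile scaling and total counts alone, 0.0522 to 0.0599) and Impact (upper-quartile scaling, 0.0517). The causes were not tested, and fits without a sample have fewer samples.

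Members called higher numbered 8 to 13 with 1 sample left out and 10 (upper-quartile scaling) to 14 (DESeq2) otherwise. Members called lower numbered 0 to 3 with 1 sample left out, and 1 by DESeq2. All genes called numbered 1079 (without Cont_345) to 1836 with 1 sample left out, and 1603 to 2130 otherwise, against 1689. Further imprinted genes and regulators called numbered 6 to 12 with 1 sample left out, and 10 to 13 otherwise.

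Mest was -0.0083 under upper-quartile scaling and -0.0053 with total counts alone. With 1 sample left out, log2 fold changes that changed sign ranged from -0.098 to 0.163 for Mest, -0.046 to 0.109 for Tssc4, -0.0070 to 0.127 for Trappc9, -0.374 to 0.0433 for Slc38a4 and -0.159 to 0.187 for Rasgrf1. None of these was called with all samples. The scalings moved the median of all genes by -0.019 to -0.0026. No paired analysis was possible because the genotypes share no sample numbers. Depth limits Ddc, Zim1, Rasgrf1, Airn and the 3 untested genes most.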
